A study of Mus musculus with 23 samples.

Results

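Khdrbs1, Khdrbs2 and Khdrbs3 are the 3 genes of one small family of RNA-binding proteins, and they are described here in 3 hippocampal neuron populations with and without a conditional knockout of Khdrbs3. They were taken by symbol, 3 of 45706 gene IDs in the deposited count table, and all 3 passed the filter on low counts that left 18823 genes. The family was picked because earlier results from these same libraries had shown its members to differ between genotypes. Its genotype differences, shares and population order are therefore given as descriptions, without a test.

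The data are read counts per gene from polyadenylated RNA of the mouse hippocampus, in 23 libraries of 6 groups. The populations are named CamK and Grik, both labelled as excitatory pyramidal cells, and SST, labelled as interneurons that express somatostatin. The series speaks of excitatory cells of areas CA1 and CA3 and of SST+ inhibitory cells. Each population had 4 wild-type libraries (SLM2 WT, called WT) and either 3 (CamK) or 4 (Grik and SST) libraries with the genotype SLM2 cKO (called cKO), SLM2 being another name for the Khdrbs3 protein. The sources used here give no strain, age, sex, Cre driver line, deleted exons or method of isolating the cells, nor whether each library came from its own animal.

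The proteins of this family bind RNA through a STAR domain, a KH fold with flanking segments, and each can pair with itself or with its relatives. Khdrbs1 encodes Sam68, which is made in nearly all tissues, while Khdrbs2 encodes SLM1 and Khdrbs3 encodes SLM2 (also T-STAR), both found in a narrower range of tissues that includes brain. All of them bind short A- and U-rich motifs and regulate alternative splicing, and their known neuronal targets include transcripts of synaptic adhesion proteins. In the hippocampus SLM2 is known from pyramidal cells and from some interneurons.

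Because the balance between relatives rests on telling their reads apart, a stretch from the start of the KH region is shown for each gene. It is 90 bases long, runs from the end of exon 2 into exon 3 and is written 5′ to 3′ along the coding strand from the GRCm38 genome. Capitals mark bases that differ from Khdrbs3.
Khdrbs3: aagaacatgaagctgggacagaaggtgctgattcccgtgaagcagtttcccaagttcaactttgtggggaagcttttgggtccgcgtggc
Khdrbs1: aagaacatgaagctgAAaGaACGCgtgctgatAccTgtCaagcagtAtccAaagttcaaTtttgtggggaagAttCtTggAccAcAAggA
Khdrbs2: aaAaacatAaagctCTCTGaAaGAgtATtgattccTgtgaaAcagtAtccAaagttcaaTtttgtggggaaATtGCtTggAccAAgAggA

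In this stretch 59 of 90 bases are the same in all 3 genes, while 21 differ from Khdrbs3 in Khdrbs1 and 27 in Khdrbs2. The Khdrbs3 stretch lies at chr15:68995117-69013393 on the plus strand, that of Khdrbs1 at chr4:129727636-129730254 on the minus strand and that of Khdrbs2 at chr1:32243974-32333501 on the plus strand, each range including the intron between the exons. For each gene only the transcript with the longest coding sequence was compared. The longest run of identical bases between those of Khdrbs1 and Khdrbs2 has 29 bases, cagtatccaaagttcaattttgtggggaa, and lies inside the same stretch. In these transcripts Khdrbs3 shares at most 15 identical bases in a row with Khdrbs1 and 16 with Khdrbs2. Over their aligned coding sequences the pairs are 68.6% (Khdrbs1 and Khdrbs2), 68.4% (Khdrbs1 and Khdrbs3) and 73.3% (Khdrbs2 and Khdrbs3) identical. The sources used here give no read length, and reads mapped to several places stand in a summary row of the table, apart from the gene counts.

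The genes lie on different chromosomes. In the GENCODE M21 annotation of GRCm38, Khdrbs3 (ENSMUSG00000022332) spans chr15:68928420-69101211 on the plus strand. Khdrbs1 (ENSMUSG00000028790) spans chr4:129703164-129742303 on the minus strand, and Khdrbs2 (ENSMUSG00000026058) spans chr1:32172714-32658568 on the plus strand. The bases covered by their annotated exons number 3662 in Khdrbs3, 6419 in Khdrbs1 and 10291 in Khdrbs2. If the RNA held all of these exons, an equal number of molecules would give Khdrbs2 the most reads. By coding length Khdrbs1 is the longest, with 1329 bases against 1047 in Khdrbs2 and 1038 in Khdrbs3. No other gene shares exon bases with any of them. The introns of Khdrbs2 hold 8 predicted genes (Gm25814, Gm24732, Gm5415, Gm37792, Gm9839, Gm37999, Gm37911 and Gm37110), which together had at most 11 reads in a library, against 339 to 4046 reads for Khdrbs2. An intron of Khdrbs3 holds Gm49422, for which no count was used here.

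The libraries were deep, with 87612006 to 112993538 reads in genes. Markers of each labelled population stood highest in its own libraries, beside markers of other cells. The 4 CA1 markers (Wfs1, Fibcd1, Mpped1 and Pou3f1) summed to 1006 to 1668 counts per 1000000 gene reads (CPM, scaled by TMM factors) in CamK and to 50.5 to 95.7 CPM in Grik. In SST they summed to 392 to 430 CPM, most of it from Mpped1 (334 CPM in SST WT, 530.5 CPM in CamK WT and 25.5 CPM in Grik WT). The 4 CA3 markers (Grik4, Nectin3, Bok and Cdh24) summed to 404 to 497 CPM in Grik and to 62.4 to 112 CPM in CamK, and the 6 inhibitory markers to 5618 to 7937 CPM in SST and to 46.5 to 145 CPM in the excitatory populations. The 4 dentate gyrus markers summed to 104 to 272 CPM in CamK WT, 109 to 268 CPM in CamK cKO, 133 to 157 CPM in Grik and 28.2 to 41.5 CPM in SST. Sst itself averaged 997 ± 760 CPM in SST WT and 1558 ± 595 CPM in SST cKO (SD, n = 4 each), and 5.59 to 8.13 CPM in the excitatory groups. The SST libraries held 848 to 1260 CPM of the 4 excitatory markers, and no marker was at 0 throughout a group. The 5 oligodendrocyte markers summed to 684 to 1073 CPM in Grik, more than the CA3 markers there. They summed to 144 to 279 CPM in CamK and to 250 to 1045 CPM in SST. Of the 20 markers of astrocytes, oligodendrocytes, microglia and endothelium, 18, 16 and 17 were higher in the cKO libraries of CamK, Grik and SST, with median log2 differences of 0.58, 0.18 and 0.46. Their lowest adjusted p in edgeR's quasi-likelihood test was 0.4, 0.992 and 0.833 in these populations, and 3, 0 and 1 of the 20 had an unadjusted p under 0.05, against 7.05, 4.88 and 5.85% of all genes. In a bulk library, fewer cells of a type and less RNA per cell cannot be told apart, and this holds for every level below.

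Khdrbs3, the gene named by the knockout, is described first. In CamK its level in the cKO libraries was 293.5, 291.4 and 249.0 CPM in replicates 4, 5 and 6. In the WT libraries it was 366.8, 356.2, 412.9 and 356.2 CPM in replicates 2, 3, 4 and 5. Each cKO library was under each WT library, at 66.8 to 78.7% of the WT mean, and replicate 6 was the lowest.

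In SST the level of Khdrbs3 was 87.9, 82.6, 98.8 and 106 CPM in cKO replicates 3, 4, 5 and 7. It was 134, 124, 123 and 140 CPM in WT replicates 1, 2, 3 and 5. Here too no library of one genotype reached into the range of the other, and the cKO libraries stood at 63.4 to 81.3% of the WT mean.

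In Grik the order was turned round. Khdrbs3 had 412, 439, 396 and 409 CPM in the libraries labelled cKO (replicates 1 to 4) and 327, 330, 347 and 338 CPM in the WT libraries (replicates 3 to 6). Every library labelled Grik cKO was above every WT library, so the count of the targeted gene went against the label, and "cKO" refers to the label alone wherever Grik is named. Counts cover the whole gene, including exons outside any deleted part, so they do not check the deletion in any population.

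As log2 differences (cKO minus WT) from one edgeR fit over all genes and libraries, Khdrbs3 had values of -0.42 (CamK, SE 0.081), 0.30 (Grik, SE 0.075) and -0.47 (SST, SE 0.075). The median over all genes tested was between -0.0014 and 0.023 in these comparisons. A score of the non-neuronal markers was also formed, as the mean of their log2 CPM with each marker centred on its own mean over the libraries. In this score a marker counts alike whatever its level, unlike in a sum of CPM. With the score as a covariate, the differences in Khdrbs3 were -0.47, 0.29 and -0.50 in the same order.

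Khdrbs1, which encodes the broadly expressed Sam68, had more reads in the cKO libraries of both excitatory populations. In CamK it had 220, 224 and 234 CPM in cKO replicates 4, 5 and 6 and 152, 157, 162 and 131 CPM in WT replicates 2, 3, 4 and 5. In Grik it had 191, 170, 184 and 186 CPM in the libraries labelled cKO and 137, 127, 108 and 126 CPM in WT. In neither population did the genotypes overlap, and the cKO mean was 50.3% above the WT mean in CamK and 47.1% above it in Grik.

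SST differed from this. Khdrbs1 had 221, 237, 210 and 171 CPM in SST cKO replicates 3, 4, 5 and 7 and 196, 194, 188 and 206 CPM in WT. Replicates 3, 4 and 5 were above all WT libraries and replicate 7 was below all of them, so the genotypes overlapped. The log2 differences for CamK, Grik and SST were 0.59 (SE 0.091), 0.56 (SE 0.085) and 0.099 (SE 0.085). Leaving out SST cKO replicate 7 moved the SST value to 0.18, and leaving out replicate 4 moved it to 0.035.

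Khdrbs2, the least abundant member, showed the widest fold differences. In CamK it had 38.5, 38.0 and 43.96 CPM in cKO replicates 4, 5 and 6 and 13.4, 15.0, 13.9 and 13.6 CPM in WT. In Grik it had 19.8, 21.4, 22.3 and 20.8 CPM in the libraries labelled cKO and 5.21, 4.45, 3.88 and 5.24 CPM in WT. The genotypes did not overlap in either population, and the group means differed 2.87-fold in CamK and 4.49-fold in Grik.

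In SST, Khdrbs2 had 17.4, 20.4, 14.4 and 11.9 CPM in cKO replicates 3, 4, 5 and 7 and 11.95, 10.6, 10.6 and 9.73 CPM in WT. Replicates 3, 4 and 5 were above all WT libraries, while replicate 7 lay within the WT range. The log2 differences for CamK, Grik and SST were 1.52 (SE 0.13), 2.17 (SE 0.13) and 0.58 (SE 0.12). The SST value was 0.70 without cKO replicate 7 and 0.44 without cKO replicate 4. Although the fold was wider in Grik, the gain in level was larger in CamK, where the cKO mean exceeded the WT mean by 26.2 CPM, against 16.4 CPM in Grik and 5.30 CPM in SST.

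**Figure D1:**
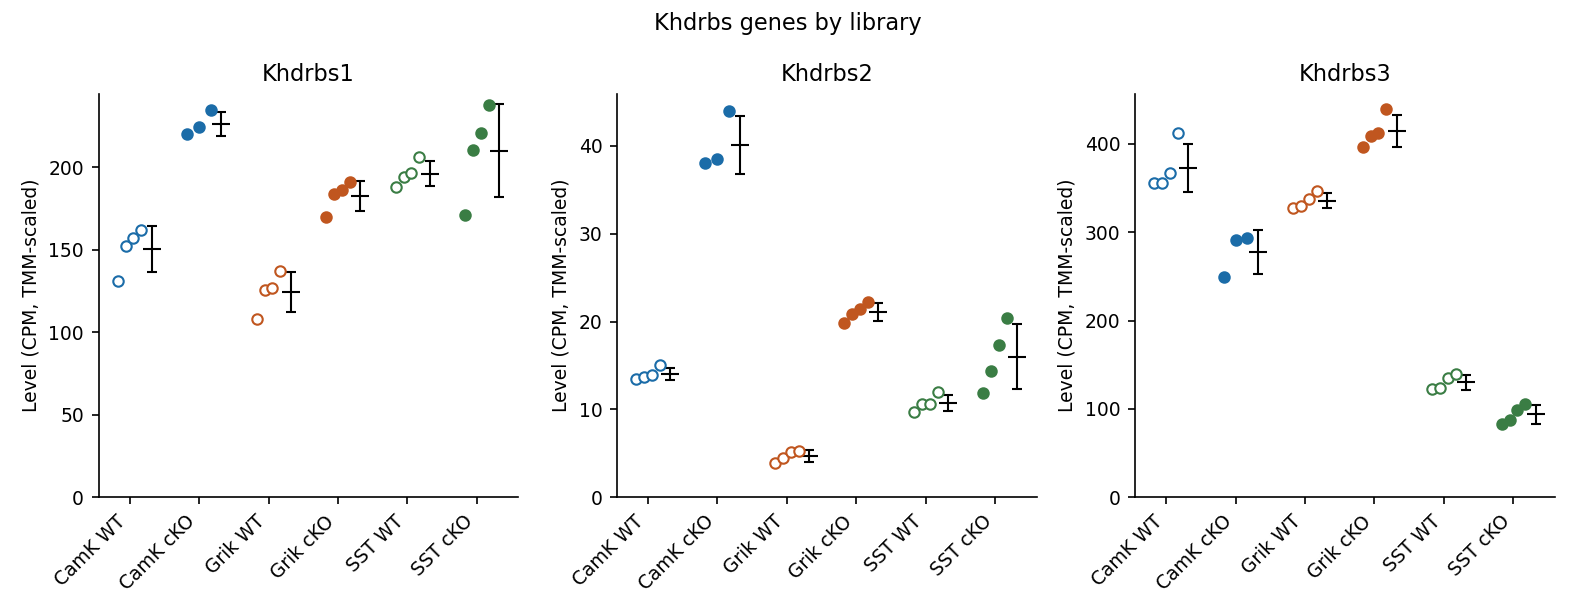
Level of each Khdrbs gene in CPM (TMM-scaled counts per 1000000 gene reads) in all 23 libraries, with open points for WT, filled points for cKO, and bars for the mean and SD of each group. Khdrbs1 and Khdrbs2 were higher in the cKO libraries of CamK and Grik, whereas Khdrbs3 was lower in cKO in CamK (278 against 373 CPM) and SST (93.8 against 130.2 CPM) and higher in Grik (414 against 336 CPM).

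For background, edgeR called 0.0106% of the 18823 genes (2 genes) at an adjusted p of 0.05 in each of the 3 genotype comparisons. The 18823 genes include the 3 Khdrbs genes, and which genes were called is not reported here. The 2 calls are therefore not to be read as genes other than the members. Without overlap between genotypes, 3.35% of all genes were higher and 3.4% lower in CamK cKO, 2.43% higher and 2.16% lower in the libraries labelled Grik cKO, and 1.43% higher and 1.28% lower in SST cKO. Of the 3 Khdrbs genes, 2 were higher and 1 lower without overlap in CamK, 3 were higher in Grik, and 1 was lower in SST. Nothing is read from these counts, since the members were chosen on this contrast.

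The share of each gene in the family was then computed within each library, from reads divided by the length of its annotated exons. Such a share does not depend on how libraries are scaled. It is not a count of molecules, because the length of the expressed transcripts was not measured. In WT, Khdrbs3 held most of the family in the excitatory populations, at 80.4% ± 1.20 (SD, n = 4) in CamK and 82.2% ± 1.79 (SD, n = 4) in Grik. In SST WT it held 52.9% ± 0.832 (SD, n = 4), close to Khdrbs1, at 45.5% ± 0.806 (SD, n = 4).

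Khdrbs1 held 18.5% ± 1.17 of the family in CamK WT and 17.4% ± 1.74 in Grik WT (SD, n = 4 each). Khdrbs2 held a small share everywhere, at 1.08% ± 0.0911, 0.409% ± 0.0563 and 1.55% ± 0.159 for WT libraries of CamK, Grik and SST (SD, n = 4 each). The WT families of CamK and Grik were thus alike in their leading member, and the SST family was close to even between Khdrbs3 and Khdrbs1. Which of the leading pair came first in SST depended on the length used: Khdrbs1 held 58.2% of plain reads and 52.1% per coding length in SST WT.

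In CamK the share of Khdrbs3 was 67.8, 67.3 and 62.5% in cKO replicates 4, 5 and 6, below the 78.9 to 81.8% of the WT libraries. The mean was 65.9% ± 2.94 (SD, n = 3), or 14.5 percentage points under WT. Because the shares of a library make up a fixed whole, a lower Khdrbs3 share always goes with a higher share of the others together. The Khdrbs1 share was higher by 12.2 points, at 30.7% ± 2.49, and that of Khdrbs2 by 2.33 points, at 3.41% ± 0.452 (SD, n = 3 each). For all 3 genes the CamK genotypes did not overlap.

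In SST the share of Khdrbs3 was 39.9, 36.7, 44.1 and 51.0% in cKO replicates 3, 4, 5 and 7, and 52.0 to 53.6% in WT. Every cKO library was below every WT library, but replicate 7 lay only just below. The means differed by 10.01 points (42.9% ± 6.17 in cKO, SD, n = 4). Khdrbs1 stood above Khdrbs3 in the mean, with 54.5% ± 5.66, and in replicates 3, 4 and 5, but below it in replicate 7, with 47.0%. Khdrbs2 had 2.59% ± 0.528 (SD, n = 4 each for both means). Without replicate 7 the share of Khdrbs3 in SST cKO averaged 40.2%. In replicate 7 the order depended on the length used. Khdrbs1 was above Khdrbs3 there on plain reads (59.2 against 36.6%) and per coding length (53.2 against 42.1%).

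In Grik the shares of Khdrbs3 and Khdrbs1 differed least between genotypes. Khdrbs3 had 78.7% ± 1.38 (SD, n = 4) in the libraries labelled cKO, 3.49 points under WT, and the genotypes overlapped because replicate 2 stood at 80.8%, inside the WT range of 80.4 to 84.7%. Khdrbs1 overlapped as well, at 19.8% ± 1.36 against 17.4% ± 1.74 (SD, n = 4 each). The share of Khdrbs2, by contrast, was 1.34 to 1.56% in the libraries labelled cKO and 0.337 to 0.455% in WT, with no overlap. As a ratio of means, the Khdrbs2 share in Grik was 3.49 times the WT value, against 3.16 times in CamK and 1.67 times in SST. On plain reads and per coding length, the Khdrbs3 shares of the Grik genotypes did not overlap (67.0% against 72.3% of reads), although its level was higher in the libraries labelled cKO.

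**Figure D2:**
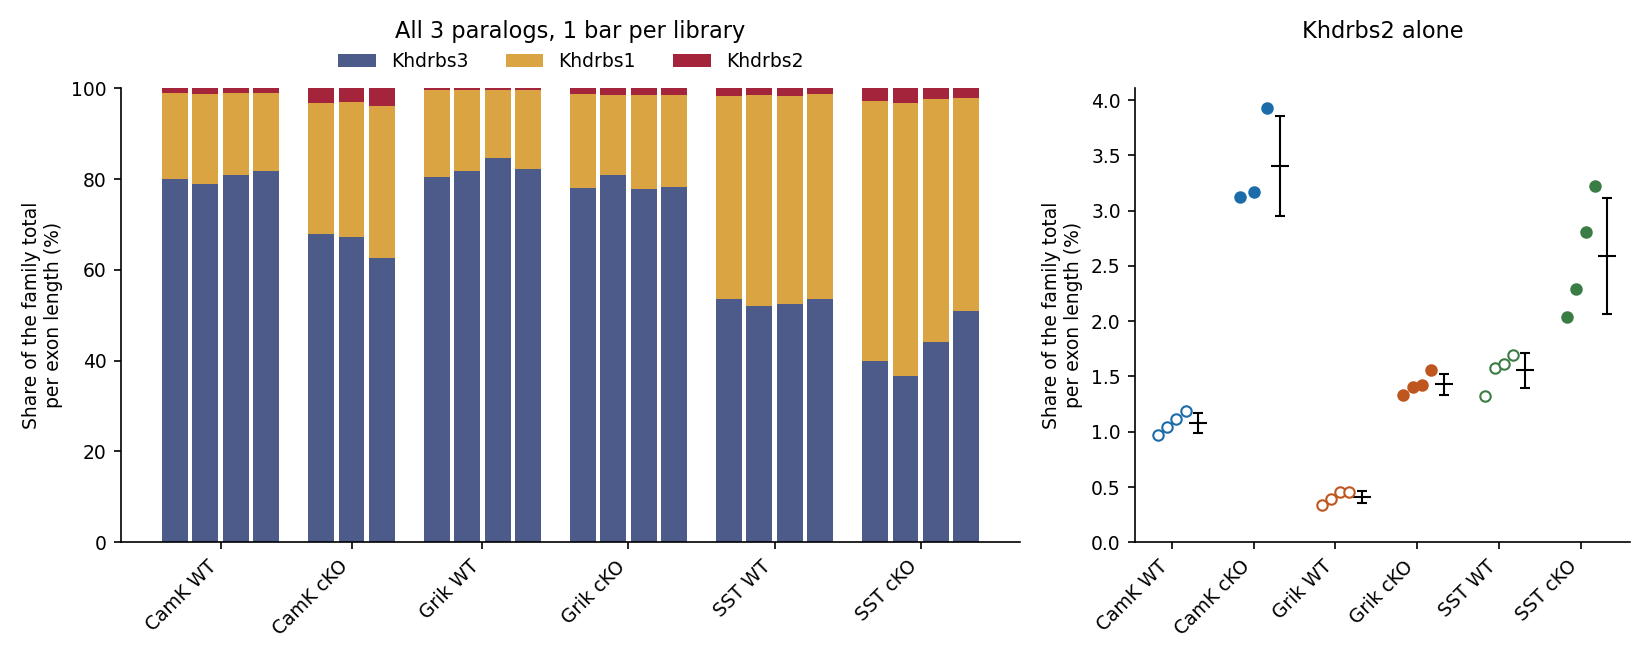
Left, share of the Khdrbs family total held by each gene in each library, in percent of reads per exon length, with 1 bar per library grouped by population and genotype. Right, the share of Khdrbs2 alone with the mean and SD of each group; Khdrbs3 averaged 80.4% in CamK WT and 65.9% in CamK cKO, and Khdrbs2 averaged 0.409% in Grik WT and 1.43% in the libraries labelled Grik cKO.

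The summed level of the family showed whether the gains of Khdrbs1 and Khdrbs2 matched the change in Khdrbs3. In CamK the sum was 538 ± 37.0 CPM in WT (SD, n = 4) and 544 ± 14.7 CPM in cKO (SD, n = 3), with overlap. In SST it was 337 ± 15.2 and 320 ± 21.8 CPM (SD, n = 4 each), again with overlap. In Grik it was 464 ± 5.60 CPM in WT and 618 ± 11.9 CPM in the libraries labelled cKO (SD, n = 4 each). The Grik sum was thus higher by 33.1%, without overlap. The mean differences (cKO minus WT) of Khdrbs1, Khdrbs2 and Khdrbs3 were 75.7, 26.2 and -95.0 CPM in CamK. There the gains nearly matched the loss. In SST the mean differences were 13.9, 5.30 and -36.4 CPM, so the gains were smaller than the loss.

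Per kilobase of exon, where the long Khdrbs2 and Khdrbs1 count for less, the sum was lower in cKO by 9.17% in CamK and 10.8% in SST, and higher by 28.9% in Grik, without overlap in any of these. The CamK gap was narrow: the highest cKO library had 118.2 and the lowest WT library 119.0 CPM per kilobase. The family total in reads was therefore about level between genotypes in CamK. In SST the mean total in reads was lower in cKO, with overlap between the genotypes. The total per kilobase was lower in cKO in CamK and SST, and both totals were higher in the libraries labelled Grik cKO.

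Ratios between pairs of genes gave the balance in another form. The ratio of Khdrbs2 to Khdrbs3 per kilobase was 0.0134, 0.00499 and 0.0294 in the WT libraries of CamK, Grik and SST. In the cKO libraries it was 3.87 times, 3.64 times and 2.13 times the WT value, without overlap in any population. The ratio of Khdrbs1 to Khdrbs3 was 2.03 times the WT value in CamK and 1.51 times in SST, without overlap, and 1.19 times in Grik, with overlap. The Khdrbs2 to Khdrbs3 ratio was thus higher in the libraries labelled cKO in all 3 populations, also in Grik, where Khdrbs3 itself was higher.

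**Figure D3:**
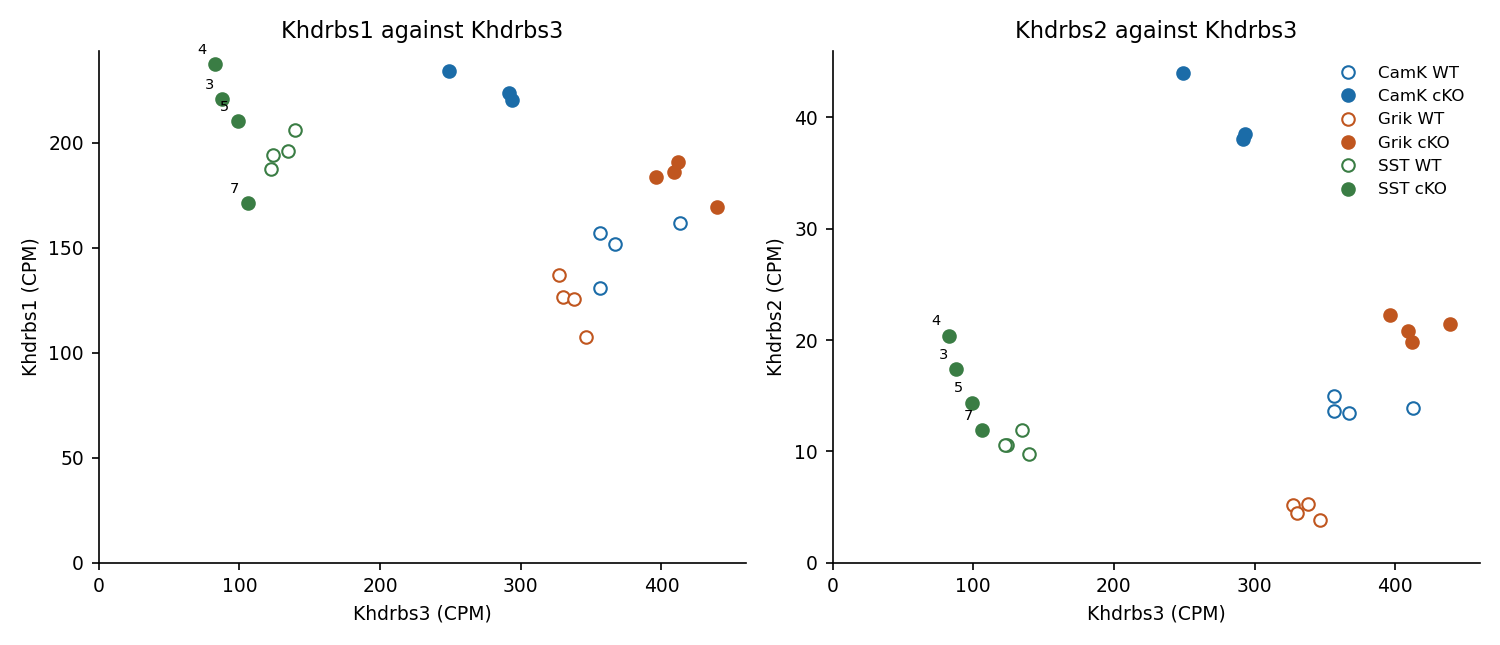
Level of Khdrbs1 (left) and Khdrbs2 (right) against the level of Khdrbs3 in CPM, 1 point per library, open for WT and filled for cKO, with the replicate number beside the SST cKO libraries. CamK cKO points lie to the left of and above CamK WT, points labelled Grik cKO to the right of and above Grik WT, and the SST cKO points run from replicate 4 (82.6 CPM of Khdrbs3) to replicate 7 (106 CPM).

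The cKO libraries of SST differed among themselves in a regular order. From replicate 4 through 3 and 5 to 7, Khdrbs3 went from 82.6 to 106 CPM, and Khdrbs1 and Khdrbs2 followed exactly the opposite order. The summed non-neuronal markers followed the order of Khdrbs3, with 308, 509, 1077 and 1203 CPM in replicates 4, 3, 5 and 7, while the SST WT libraries had 368 to 805 CPM. The excitatory markers had 925, 848, 1100 and 1260 CPM in the same sequence, and the inhibitory markers were lowest in replicate 7, at 5618 CPM. The part of other cell types in this order was not tested.

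In CamK cKO, replicate 6 had the lowest Khdrbs3 and the highest Khdrbs1 and Khdrbs2. Its non-neuronal markers were the lowest of the CamK cKO libraries at 242 CPM, against 261 and 315 CPM in replicates 4 and 5. Its inhibitory markers were the highest, at 139 CPM against 77.5 and 99.3 CPM. Its CA1 markers were the lowest, at 1006 CPM against 1181 and 1668 CPM in replicates 4 and 5. The CA3 markers (112 against 97.6 and 62.4 CPM) and the dentate gyrus markers (268 against 209 and 109 CPM) were highest in replicate 6. The part of cell composition in its Khdrbs levels was not tested. Without replicate 6 the log2 difference in CamK was -0.35 for Khdrbs3, 0.56 for Khdrbs1 and 1.45 for Khdrbs2. Among the libraries labelled Grik cKO, replicate 2 had the highest Khdrbs3 and the lowest Khdrbs1, whereas Khdrbs2 varied only from 19.8 to 22.3 CPM.

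The populations were ranked next. In WT, Khdrbs3 was highest in CamK (373 ± 27.0 CPM), then Grik (336 ± 8.61 CPM), then SST (130.2 ± 8.31 CPM, SD, n = 4 each), and no neighbours overlapped, although the lowest CamK library (356 CPM) was close to the highest Grik library (347 CPM). Khdrbs1, in contrast, was highest in SST (196 ± 7.5 CPM), then CamK (150.5 ± 13.7 CPM) and Grik (124 ± 12.1 CPM, SD, n = 4 each), and CamK and Grik overlapped. Khdrbs2 was highest in CamK (14.0 ± 0.698 CPM), then SST (10.7 ± 0.921 CPM), then Grik (4.69 ± 0.654 CPM, SD, n = 4 each), with no overlap. Among all genes, 18.8% were higher without overlap in CamK than in Grik and 19.5% lower. Against SST, 26.2% were higher and 27.7% lower in CamK, and 25.8% higher and 26.6% lower in Grik.

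In log2 terms WT CamK exceeded WT SST by 1.52 for Khdrbs3 (SE 0.076), and WT Grik exceeded WT SST by 1.37 (SE 0.076). Khdrbs1 was lower than in SST in both, with log2 differences of -0.38 in CamK and -0.66 in Grik (SE 0.085 and 0.086). With the non-neuronal score as a covariate these became -0.69 and -0.73. Khdrbs2 in WT was higher in CamK than in Grik by 1.58 (SE 0.12), and lower in Grik than in SST (log2 difference -1.19, SE 0.12). Its difference between CamK and SST was 0.39 (SE 0.12), and this one turned to -0.059 (SE 0.21) when the non-neuronal score was a covariate. Differences between WT populations were common among all genes: edgeR called 42% of them between CamK and Grik, 60.1% between CamK and SST and 57.3% between Grik and SST. With the non-neuronal covariate the numbers called were 4497, 7103 and 10535 of 18823 genes, fewer by over 1.5 times in the comparisons with CamK.

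Among the cKO libraries the order of the populations was another for each gene. Khdrbs3 was highest in the libraries labelled Grik cKO (414 CPM), then CamK (278 CPM) and SST (93.8 CPM), with no overlap, so CamK and Grik changed places. Khdrbs1 ran from CamK (226 CPM) over SST (209.9 CPM) to Grik (183 CPM), and both pairs of neighbours overlapped. Khdrbs2 ran from CamK (40.2 CPM) to Grik (21.1 CPM) and SST (16.02 CPM), so Grik moved from last to second place, and Grik and SST overlapped. Among all genes, 21.4% were higher and 22.6% lower without overlap in CamK cKO than in the libraries labelled Grik cKO. Against SST cKO, 25.4% were higher and 27.7% lower in CamK cKO, and 25.9% higher and 27.3% lower in the libraries labelled Grik cKO. The population with the highest family total in CPM was CamK in WT and Grik among the cKO libraries.

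The wider family and its partners were looked at through 4 lists with 61 genes in all, of which 59 were tested. They hold 7 other STAR genes and KH relatives, 19 partners and modifiers of the Khdrbs proteins, 12 transcripts known as splicing targets and 23 other neuronal splicing regulators. By edgeR's quasi-likelihood test, 0 of 59 had an adjusted p under 0.05 for CamK, Grik or SST, with lowest adjusted p-values of 0.619, 0.902 and 0.833. Before adjustment, 4, 5 and 0 of them had a p under 0.05, against 7.05, 4.88 and 5.85% of all genes, and DESeq2 and limma-voom with sample weights also called 0 in each population. At the adjusted threshold edgeR called 0.0106% of all genes, a share in which the Khdrbs genes are counted among those tested.

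The log2 differences of the listed genes reached from -0.43 to 0.25 in CamK, from -0.17 to 0.44 in Grik and from -0.26 to 0.19 in SST. Qk, the STAR gene best known from myelinating glia, had log2 differences of 0.059, 0.063 and -0.087 for CamK, Grik and SST (SE 0.11 to 0.12). Sf1, which encodes the branch point binding protein of the spliceosome, had 0.072, -0.0053 and -0.032 (SE 0.073 to 0.078). List medians in CamK, Grik and SST were 0.072, -0.0053 and -0.023 for the relatives, -0.0023, -0.063 and -0.032 for the partners, 0.088, 0.013 and 0.0087 for the splicing targets and 0.0058, -0.0098 and -0.0070 for the other regulators. Total counts of the splicing targets do not show which exons were used, which was not analysed here.

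**Figure D4:**
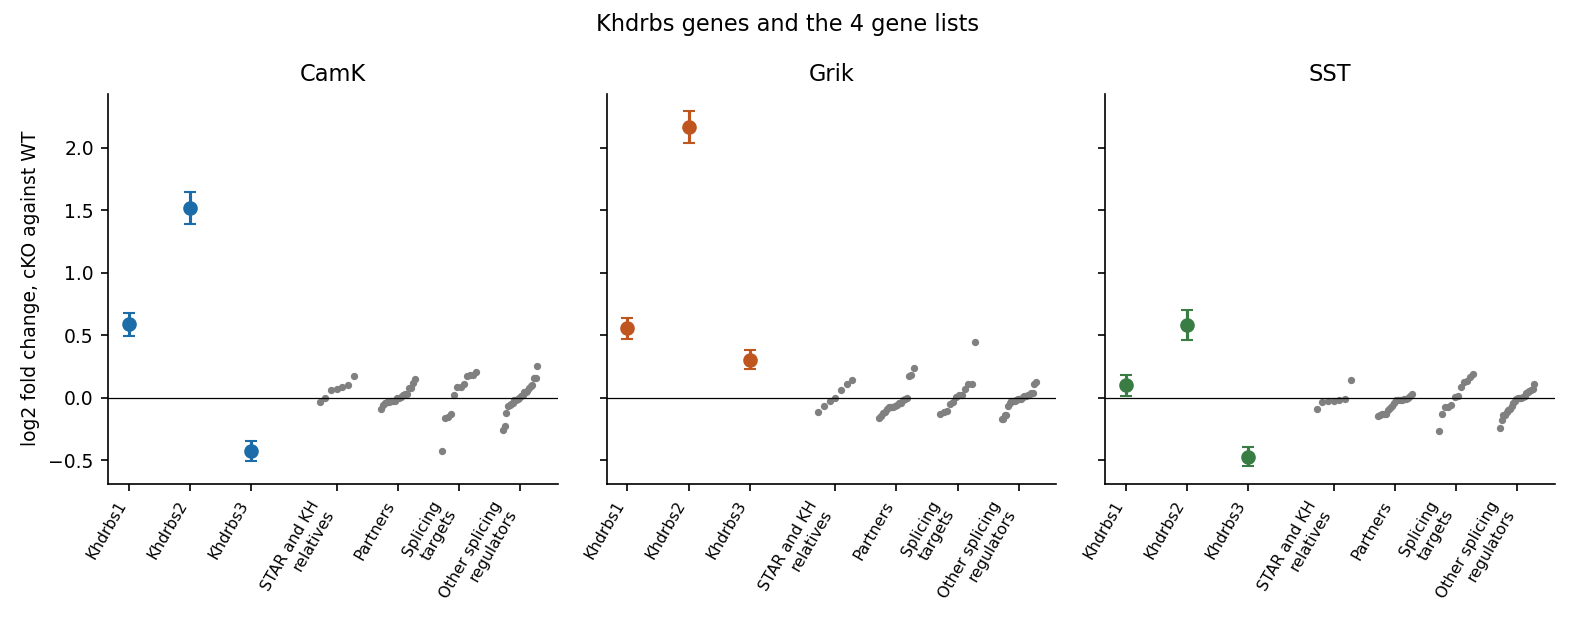
Log2 fold change of cKO against WT in each population for the 3 Khdrbs genes (coloured, with bars of 1 SE) and for each tested gene of the 4 lists (grey, 1 point per gene). The 59 listed genes lay between -0.43 and 0.44, while Khdrbs2 stood at 1.52, 2.17 and 0.58 in the panels from left to right. Khdrbs3 in CamK (-0.42) and Grik (0.30) and Khdrbs1 in SST (0.099) lay inside the range of the listed genes.

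Between WT populations many listed genes differed: 27 of 59 were called between CamK and Grik (45.8%), 40 between CamK and SST (67.8%) and 40 between Grik and SST (67.8%), against 42, 60.1 and 57.3% of all genes. With the non-neuronal covariate, 19, 32 and 39 of the listed genes were called. Of the relatives, Qk was lowest in CamK, with log2 differences of -0.90 against Grik and -1.31 against SST (edgeR adjusted p 3.8e-07 and 2.2e-10), and it was lower in Grik than in SST (-0.41, adjusted p 0.0022). The non-neuronal markers summed to 208, 866 and 578 CPM on average in CamK, Grik and SST WT. Most of this came from the oligodendrocyte markers, at 189, 806 and 489 CPM. The score of the non-neuronal markers is not this sum and need not follow it. With the score as a covariate the Qk differences were -0.58, -0.89 and -0.31, all still past the threshold. Sf1 was higher in CamK and Grik than in SST by 0.42 and 0.28 (edgeR adjusted p 2.1e-05 and 0.0019). The first of these missed the threshold with the non-neuronal score as a covariate, at 0.28 and an adjusted p of 0.116.

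Of the partners, 6, 12 and 11 of 18 tested genes were called between CamK and Grik, CamK and SST, and Grik and SST. The shares of all genes called in these comparisons were 42, 60.1 and 57.3%. Src, the tyrosine kinase that phosphorylates Sam68, was higher in CamK and Grik than in SST by 0.77 and 0.99. Mapk3, a kinase of the MAPK pathway, was lower than in SST, with log2 differences of -0.74 and -0.56, and edgeR's adjusted p-values for these 4 differences of Src and Mapk3 were 0.0048 or less. For Mapk3 the difference between CamK and SST missed the threshold with the non-neuronal score as a covariate (-0.80, adjusted p 0.052). Of the 12 splicing targets, 7, 8 and 9 were called in the same comparisons, again against 42, 60.1 and 57.3% of all genes. Nrxn3, which encodes a presynaptic adhesion protein, was lower in both excitatory populations than in SST, with log2 differences of -0.99 and -0.83 (edgeR adjusted p 8.5e-09 and 1.6e-07).

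Of the 22 other splicing regulators tested, 12, 17 and 18 were called, against 42, 60.1 and 57.3% of all genes. Rbfox3, the gene of the neuronal marker NeuN, was higher in CamK and Grik than in SST, by 1.81 and 1.48, beside 1.52 and 1.37 for Khdrbs3. Elavl2 was lower in CamK than in Grik and SST (-2.06 and -2.65), and Nova1, like Khdrbs2, was higher in CamK than in Grik (1.09) and lower in Grik than in SST (-1.42). For these 6 differences the adjusted p-values in edgeR's test were 7.9e-10 or less.

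The shift in balance was set beside the same measure in 6 other families of neuronal RNA-binding proteins, Rbfox, Nova, Ptbp, Mbnl, Celf and Elavl. The measure is the largest difference, in percentage points of reads per exon length, that any gene of a family showed between cKO and WT. In CamK it was 14.5 points for the Khdrbs family (Khdrbs3), and the next was 3.09 points for Celf (Celf5, 25.6% ± 1.42 against 28.7% ± 1.91). In SST it was 10.01 points for Khdrbs and 2.05 points for Elavl (Elavl3, 35.1% ± 4.36 against 33.0% ± 4.63). In Grik it was 3.49 points for Khdrbs (Khdrbs3) and 2.48 points for Elavl (Elavl3, 43.4% ± 0.917 against 40.9% ± 4.1, SD, n = 4 each). The distance between these families in Grik depended on the scale, with 5.26 points for Khdrbs3 and 2.65 for Elavl3 on plain reads, and 5.09 and 2.68 points per coding length.

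The root mean square of the WT and cKO SDs of the Khdrbs3 share was 2.24, 1.60 and 4.4 points for CamK, Grik and SST. Since the Khdrbs genes were chosen for this contrast, the comparison is a description. In WT, other families also differed in balance between the excitatory and SST libraries: Mbnl2 held 87.9, 86.9 and 72.8% of its family for CamK, Grik and SST, while Celf5 held 28.7, 17.4 and 11.7%.

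**Figure D5:**
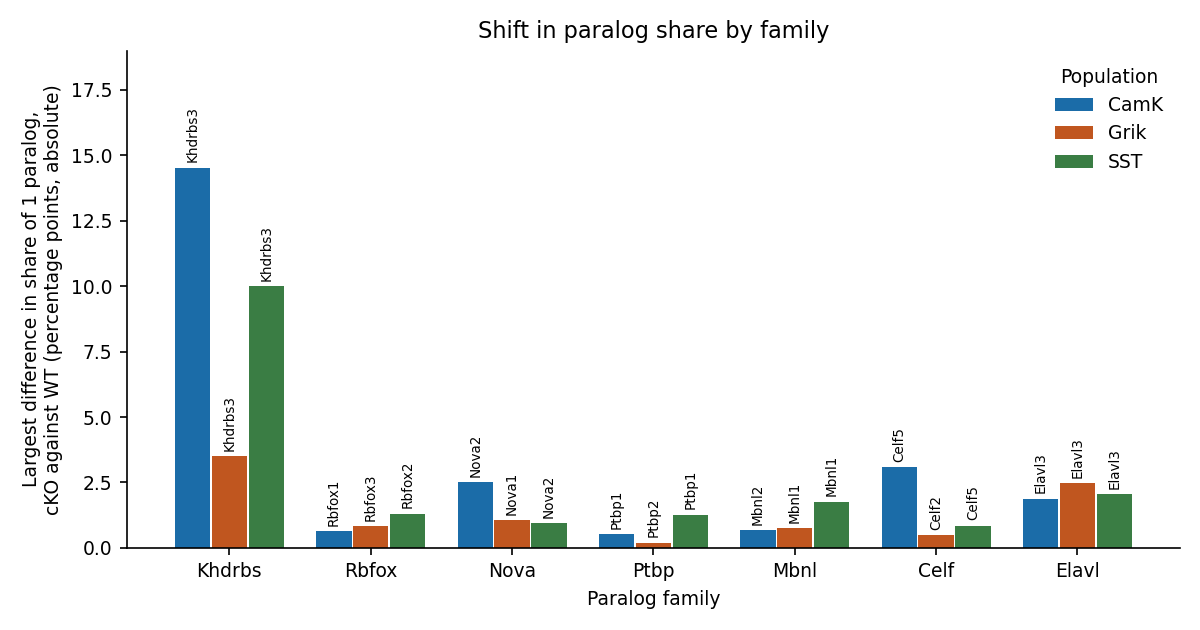
Largest absolute difference in share of any 1 gene between cKO and WT, in percentage points of reads per exon length, for the Khdrbs family and 6 other families in each population, with the gene named above its bar. The Khdrbs bars reach 14.5 (CamK), 3.49 (Grik) and 10.01 (SST) points, and the highest bars of the other families reach 3.09 (Celf5), 2.48 (Elavl3) and 2.05 (Elavl3).

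Finally, genes with a similar profile over the 23 libraries were named by the root mean square difference of log2 CPM, each gene centred on its own mean, among 12965 genes with a symbol and a mean of at least 1 CPM. Nearest to Khdrbs3 were Otub2 (0.20), Ppp2r5a (0.21) and 2700081O15Rik (0.21), where Khdrbs3 itself varied by 0.83 about its mean. These genes had the step between excitatory and SST libraries: Otub2 had 87.9, 83.7 and 29.2 CPM in CamK, Grik and SST WT. Otub2 was also among the 3 nearest in the 12 WT libraries alone.

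Nearest to Khdrbs1 were Oser1 (0.21), Arid1a (0.22) and Jade1 (0.22), against its own variation of 0.31. For Khdrbs2 the 3 nearest were Khdrbs1 (0.70), Pkmyt1 (0.70) and Ak8 (0.71), almost equally far from it, against a variation of 0.92 for Khdrbs2 itself. The 23 libraries include the genotype contrast on which the Khdrbs genes were chosen, so nothing is read from the place of Khdrbs1 among them. In the WT libraries alone, where its variation was 0.68, Pknox2 came to 0.13, with 60.4, 21.7 and 48.6 CPM in CamK, Grik and SST. For Khdrbs1 and Khdrbs2, none of the 3 nearest genes over all libraries was among the 3 nearest in WT alone.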

How the data were processed

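The authors deposited raw read counts per Ensembl gene as whole numbers; Trimmomatic, STAR and the build GRCm38 are named in the submitters' processing notes, without versions. The sources used here give no strand setting or annotation. The 4 summary rows (12.4 to 18.4% of reads) were left out. IDs were matched to GENCODE M21 (45143 of 45706). Columns were matched to samples by name and samples grouped by title.

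CPM values are counts per 1000000 gene reads with TMM scaling. After filterByExpr over the 6 groups, 18823 genes remained, and all 23 libraries were fitted together with glmQLFit (robust) and glmQLFTest of edgeR 4.0.16 in R 4.3.3, with 17 residual degrees of freedom and Benjamini-Hochberg adjustment per comparison (threshold 0.05). The common biological coefficient of variation was 16.3%, so at this depth libraries of a group vary more than counting alone gives. P-values measure only the spread between these libraries, which may be technical. All 33 replicate pairs differed beyond counting error (chi-square per degree of freedom 8.27 to 198). The function was tested on simulated counts.

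Shares divide each count by the union of exon lengths. Alternatives were plain reads and coding length (from GENCODE coding sequence, since no protein table was used here), relative log expression scaling, no low-count filter, DESeq2 1.42.0, limma-voom (limma 3.58.1) with sample weights, the compared groups alone, a covariate for non-neuronal markers, a block for the replicate number, and leaving out single libraries in turn. The likeness measure used a pseudocount of 0.1 CPM.

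The members, lists, tests and alternatives were chosen with earlier results of these data known. The text names the 3 members, Qk and Sf1, genes overlapping a member, markers, the genes with the largest share shift per family, the 3 genes most like each member and, from up to 2 called listed genes per list, direction and WT comparison, a selection. Of the listed genes, Prmt1 was not matched and Mbnl3 did not pass the filter. Some listed genes are counted in their lists but their own values are not reported here.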

Additional observations from a re-analysis of the deposited data

Results flagged for a closer look

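Among the libraries labelled Grik cKO, replicate 2 stood far from the other 3 in 3 linked measures. Its ratio of Khdrbs1 to Khdrbs3 per kilobase was 0.220, while the others had 0.26 to 0.264. Its share of Khdrbs1 was 17.8% and its share of Khdrbs3 was 80.8%. These were 3 of 45 pairs of a group and a measure that were looked at, where chance gives about 2.25 such pairs. Its sum of non-neuronal markers was 1083 CPM, within the 820 to 1138 CPM of its group, and 1003 CPM of this came from oligodendrocyte markers. Its astrocyte and endothelial markers were the highest of the group, at 66.5 and 7.24 CPM, with 52.5 and 2.48 CPM in the next library. Its oligodendrocyte and microglial markers (5.53 CPM) were neither the highest nor the lowest.

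The difference in Khdrbs3 had opposite signs in different populations, with log2 differences of -0.42 in CamK and -0.47 in SST but 0.30 in Grik. Every cKO library of CamK and SST was below all WT libraries of its population, and every library labelled Grik cKO was above all Grik WT libraries. The difference between these effects was not tested here, because the gene was chosen for this contrast.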

How the results depend on the processing

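The length by which reads are divided moved every share on reads and every share but that of Khdrbs1 in SST cKO per coding length, and no difference in share changed sign. As shares of reads in WT, Khdrbs1 had 28.0, 26.7 and 58.2%, Khdrbs2 2.61, 1.01 and 3.19% and Khdrbs3 69.4, 72.3 and 38.6% in CamK, Grik and SST. In cKO these were 41.6, 29.6 and 65.4%, 7.39, 3.42 and 4.97%, and 51.0, 67.0 and 29.6%. Per coding length in WT, they were 23.3, 22.2 and 52.1%, 2.76, 1.06 and 3.62%, and 73.9, 76.8 and 44.3%. Per coding length in cKO, they were 35.8 and 24.7% (Khdrbs1 in CamK and Grik), 8.07, 3.62 and 5.77%, and 56.1, 71.7 and 34.5%. The difference in Khdrbs2 share was 4.78, 2.41 and 1.79 points on reads and 5.31, 2.56 and 2.14 points per coding length. That in Khdrbs3 share was -18.4 and -5.26 points on reads and -17.8 and -5.09 points per coding length in CamK and Grik.

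No log2 difference of a member between genotypes changed sign under the 7 other settings, or when any single library was left out. With the non-neuronal score as a covariate, Khdrbs2 in CamK was 1.63. The same covariate moved WT differences: CamK minus Grik became 0.045 for Khdrbs1, 1.23 for Khdrbs2 and 0.28 for Khdrbs3, and CamK minus SST became -0.69, -0.059 and 1.68. The non-neuronal markers themselves differ between populations (mean sums of 208, 866 and 578 CPM in CamK, Grik and SST WT), but these sums are mostly oligodendrocyte markers and are not the score. The cause of these moves was not tested.

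The 2 genes called per genotype comparison became 1, 5 and 0 when each population was fitted alone (CamK, Grik, SST), 16, 14 and 11 with DESeq2 and 6, 39 and 0 with limma-voom. In SST 1 was called without the filter and 1 with the covariate. Leaving out 1 library gave 1 to 4 calls in CamK, 1 to 9 in Grik (9 without WT replicate 6) and 0 to 2 in SST. Between WT populations the covariate gave 4497 calls for CamK and Grik and 7103 for CamK and SST.

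Same-numbered libraries did not deviate together (correlations -0.0999 to 0.129 over 6 pairs, against -0.192 to 0.161 for other numbers), so the numbers are not read as pairs. With the replicate number as a block, 5, 2 and 5 genes were called in CamK, Grik and SST. Qk and Sf1 in CamK moved to 0.31 and 0.18, and Sf1 in SST changed sign, to 0.0057. Other values that changed sign were Qk in CamK with the covariate (-0.047) and limma-voom (-0.0022), Sf1 in Grik with the covariate (0.0019) and Sf1 in SST with limma-voom (0.0058). Leaving out 1 library gave -0.037 to 0.16 for Qk in CamK, -0.048 to 0.13 for Qk in Grik, -0.031 to 0.031 for Sf1 in Grik and -0.087 to 0.015 for Sf1 in SST. None of these passed the threshold.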
